A study of Mus musculus with 18 samples.

Results

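A group of 9 genes named for neuronal adhesion and postsynaptic functions was followed through sorted colon epithelial cells and colon crypts of mice with and without the olfactory receptor Olfr78. The members were Amigo2, Lrrn1, Ntm, Tnr, Nlgn2, Dlg3, Dlg4, Shank2 and Nrg1, taken by gene name from the deposited tables, where all 9 were found among 52636 gene rows. All but Dlg4 and Nrg1 had been named by the study on these samples, so the group was not chosen independently of them. RNA-seq had been done on 18 libraries. Of the deposited tables, 1 held 6 libraries of sorted cells and 7 libraries of crypts of the Olfr78-GFP line, and 1 held 5 libraries of crypts of a conditional line.

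In the Olfr78-GFP line (B6;129P2 background), the coding exon of Olfr78 is replaced by a cassette with GFP, so cells that use the Olfr78 promoter are GFP+ve, and homozygous animals are knockouts (KO). Cells positive for the epithelial surface protein Epcam were sorted from mice aged 4 to 7 months. There were 2 pools of Epcam+ve/GFP+ve cells from heterozygous (HE) mice and 2 pools from KO mice, each pool from 2 mice, and 2 samples of Epcam+ve/GFP-ve cells that both came from 1 WT mouse. All GFP+ve pools therefore carry at least 1 cassette allele and the Epcam+ve samples carry none. Crypts, which hold the whole colon epithelium, came from 2 WT and 5 KO mice of this line. In the conditional line (B6, 129 background), Cre recombinase driven by the Villin promoter, which is active in intestinal epithelium, removes floxed Olfr78. The paper describes the genetic backgrounds of the lines as distinct. Crypts came from 3 mice titled controls and 2 titled knockouts (eKO). The ages of the crypt donors are not given in the sources used here.

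The titles and the genotype labels of the conditional line did not fully match. The controls are labelled HE/WT, WT/HO and HE/WT. The library labelled eKO 1 is HE/HO, and the library labelled eKO 2 is WT/HO like control 2. For the qRT-PCR of this line, the paper's controls were floxed homozygotes without Cre or Cre carriers with wild-type Olfr78. If the labels give Cre first and Olfr78 second, WT/HO is a control genotype and HE/HO is the knockout. The libraries are grouped by title here. Olfr78 was at 105, 61 and 124 CP20M in the controls, 21 in the library labelled eKO 1 and 73 in the library labelled eKO 2, which lies within the control values. Results of this line are given with that library. The fold changes of Amigo2 and Shank2 and the calls over both lines are therefore also given without it. CP20M is the number of reads on a gene per 20000000 reads of the library. Olfr78 itself gave 4822 and 4401 CP20M in HE pools, 977 and 837 in KO pools, 88 and 111 in crypts of WT mice and 7 to 42 in crypts of KO mice, and reads on exons that the cassette leaves in place would still be counted.

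The proteins of this group act at contacts between nerve cells. Adhesion molecules of the leucine-rich repeat, IgLON and neuroligin families sit in the membrane and bind partners on the facing cell or in the matrix, and scaffold proteins of the PSD-95 and Shank families hold receptors and adhesion molecules in place beneath the postsynaptic membrane. Enteroendocrine cells, the hormone-secreting cells of the gut epithelium, are electrically excitable and share many neuronal genes.

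The sorted libraries were shallow. The reads on genes recovered from the values numbered 532704 in KO pool 1 and 1499836 to 2237486 in the other 5 sorted libraries, against 6175306 to 10995342 in the crypt libraries. A single read was worth 37.5 CP20M in KO pool 1, 8.94 to 13.3 in the other sorted libraries and 1.82 to 3.24 in the crypts. The 8 enteroendocrine markers (Chga, Chgb, Tph1, Neurod1, Insm1, Scgn, Cpe, Pax6) summed to 857922 and 1114939 CP20M in the HE pools, 606532 and 357118 in KO pools 1 and 2, 12731 to 13070 in the Epcam+ve samples and 5916 to 14776 in crypts. The Epcam+ve samples also carry the label of enteroendocrine cells, which their low marker sum goes against. The 5 goblet cell markers summed to 140508 and 65395 in the HE pools and to 62176 and 310893 in KO pools 1 and 2, so KO pool 2 held the lowest enteroendocrine and the highest goblet signal of the 4. In such bulk libraries, fewer cells of a type and less RNA per cell cannot be told apart.

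Among the members high in the GFP+ve pools, 4 have a single start in the RefSeq promoter table (GRCm38.p6): Amigo2, Lrrn1, Tnr and Nlgn2. Their 250 bases upstream of the start are shown, 5′ to 3′ on the gene's strand, to let their promoters be compared. Capitals mark the E-box CANNTG, the 6-letter motif of bHLH factors such as NEUROD1 and NEUROG3, searched on both strands, of which CAGATG and CAGCTG are special cases.
Amigo2, chr15:97247288-97247537, minus strand: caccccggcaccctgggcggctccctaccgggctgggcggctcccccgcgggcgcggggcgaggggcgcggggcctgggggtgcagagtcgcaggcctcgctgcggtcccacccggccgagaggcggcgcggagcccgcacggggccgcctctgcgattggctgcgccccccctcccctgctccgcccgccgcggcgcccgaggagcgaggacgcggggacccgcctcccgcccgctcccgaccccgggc
Lrrn1, chr6:107529476-107529725, plus strand: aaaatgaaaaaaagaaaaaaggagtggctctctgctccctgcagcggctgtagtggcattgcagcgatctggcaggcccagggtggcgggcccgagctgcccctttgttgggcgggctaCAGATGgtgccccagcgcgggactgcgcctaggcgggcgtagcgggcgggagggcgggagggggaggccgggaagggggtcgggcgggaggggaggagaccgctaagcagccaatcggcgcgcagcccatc
Tnr, chr1:159523519-159523768, plus strand: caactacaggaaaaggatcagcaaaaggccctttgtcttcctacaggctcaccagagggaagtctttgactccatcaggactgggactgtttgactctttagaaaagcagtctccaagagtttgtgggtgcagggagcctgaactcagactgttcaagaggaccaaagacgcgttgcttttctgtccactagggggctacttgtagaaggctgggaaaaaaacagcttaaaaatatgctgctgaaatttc
Nlgn2, chr11:69837785-69838034, minus strand: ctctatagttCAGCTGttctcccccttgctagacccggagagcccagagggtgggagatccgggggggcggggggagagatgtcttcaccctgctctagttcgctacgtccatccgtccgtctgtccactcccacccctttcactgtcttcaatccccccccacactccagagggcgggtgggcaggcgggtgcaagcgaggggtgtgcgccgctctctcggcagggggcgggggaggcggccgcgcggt
The stretches differed in base composition. The GC content was 84.0% for Amigo2, 68.0% for Lrrn1, 67.6% for Nlgn2 and 46.8% for Tnr, where the median of 32851 promoters of the same length was 52.4%. CAGATG was found in Lrrn1 and CAGCTG in Nlgn2, 1 match each, against shares of 14.4% and 13.0% of all promoters, and CANNTG, present in 66.2% of all promoters, was found in neither Amigo2 nor Tnr. A match is only a description of letters, and its absence from this window says nothing about a factor. The table holds several starts for Ntm, Dlg3 and Dlg4. Shank2 and Nrg1 were not matched in it.

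**Figure D1:**
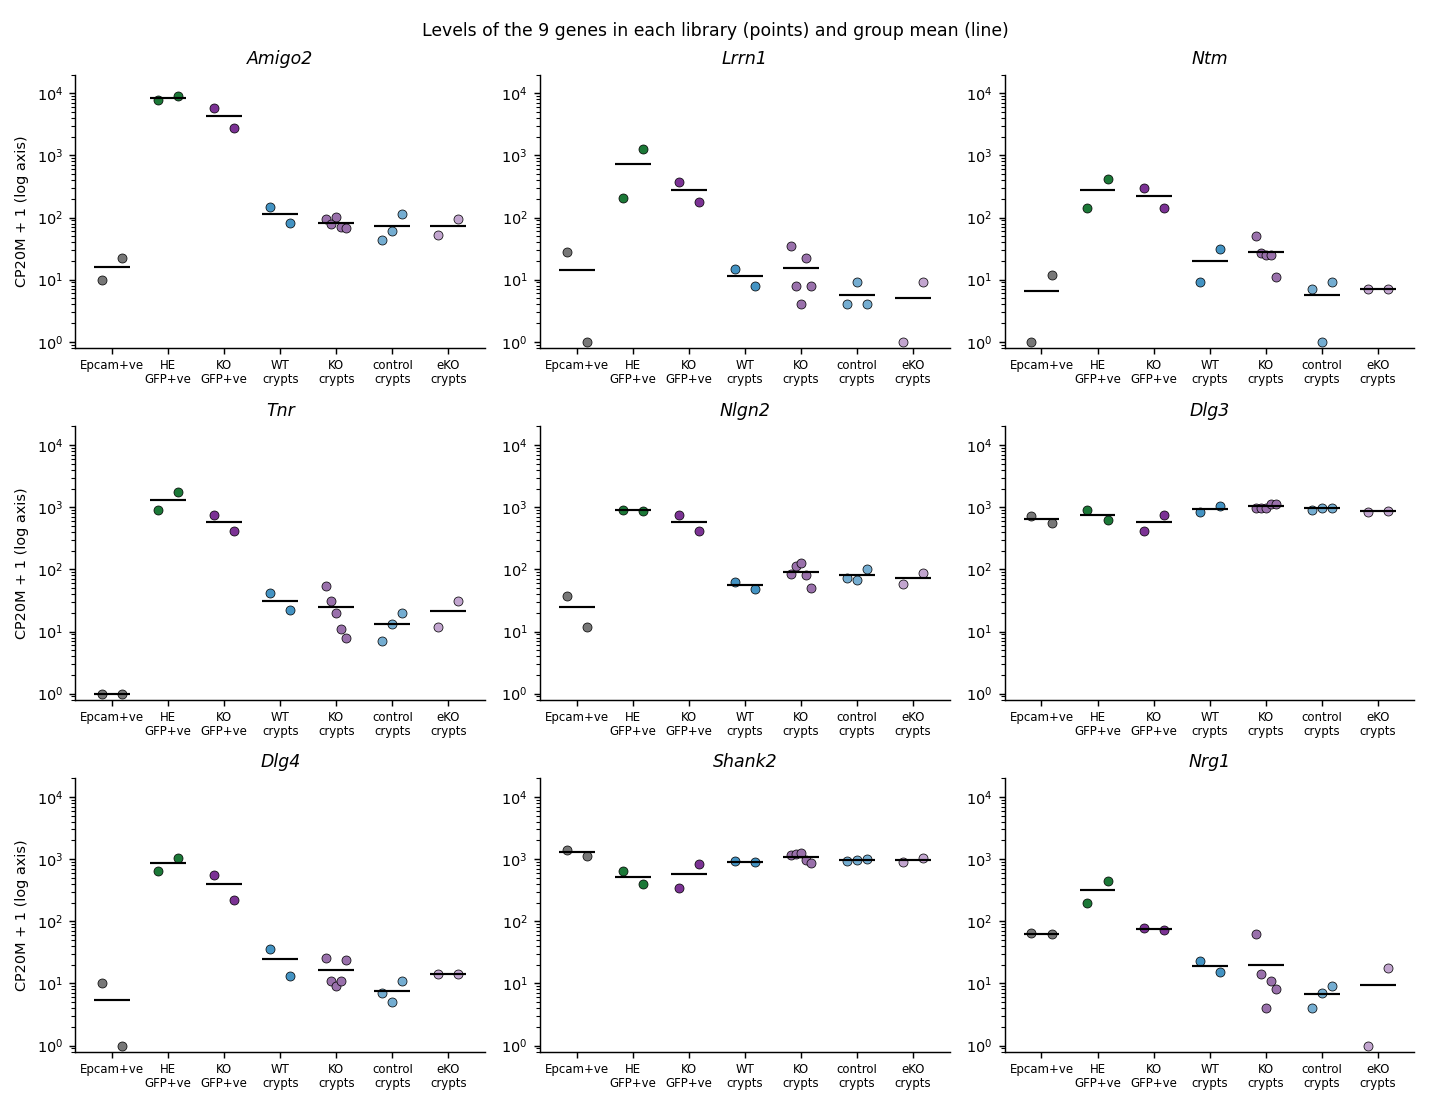
Level of each gene (CP20M + 1, log axis) in each of the 18 libraries, by group; points are libraries and lines are group means. Amigo2, Lrrn1, Ntm, Tnr, Nlgn2 and Dlg4 are higher in all 4 GFP+ve pools than in any Epcam+ve sample or crypt library, whereas Dlg3 and Shank2 are between 338 and 1422 CP20M in every library.

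The first comparison asked which of these genes are higher in Olfr78-expressing epithelial cells, HE pools vs Epcam+ve samples. The enteroendocrine marker sum averaged 986430 CP20M in the HE pools and 12900.5 in the Epcam+ve samples. Enteroendocrine cells without Olfr78 expression were not sorted as a group. Marks of Olfr78-expressing cells and of enteroendocrine cells in general therefore cannot be told apart here. Amigo2, Tnr, Nlgn2 and Dlg4 were higher in the HE pools past the thresholds, set at adjusted p below 0.001 with a log2 fold change of more than 2 in either direction, by limma on log2(CP20M + 10). That is 4 of 9 members, where 1.58% of the 16355 genes tested were called higher and 0.171% lower. None was called lower. The edgeR quasi-likelihood test on the recovered reads, at the same thresholds, called these and Lrrn1, against 3.52% of genes called higher and 1.05% lower. All 9 members passed the filter on low values, but Amigo2, Lrrn1, Ntm, Tnr, Nlgn2 and Dlg4 were under 40 CP20M in both Epcam+ve samples and passed through the GFP+ve pools alone, so they had to differ in this direction. Without overlap between the groups, 7 members lay above the Epcam+ve samples and 1 below, as did 30.4% and 33.1% of all genes tested. The counts rested on few libraries. Over the alternative settings in which they were tested, log2 fold changes ranged from 7.27 to 9.25 for Amigo2 and 5.02 to 10.29 for Tnr. For Nlgn2 they ranged from 3.91 to 5.43 and for Dlg4 from 4.29 to 8.03. Wherever leaving out a library leaves 1 in a group, limma takes the spread from the other group, and the lone library is assumed to vary like it. The Epcam+ve samples are 2 samples of 1 mouse, so the spread between them is technical.

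Amigo2, a membrane protein with leucine-rich repeats and an immunoglobulin domain that mediates cell adhesion, was by far the highest member. HE pools 1 and 2 gave 7882 and 8895 CP20M, KO pools 1 and 2 gave 5857 and 2720, and Epcam+ve samples 1 and 2 gave 9 and 21. All 4 GFP+ve pools lay above every other library, since crypts ranged from 42 to 144 CP20M. Between HE pools and Epcam+ve samples the log2 fold change was 8.43 ± 0.34 (SE, n = 2 vs 2, adjusted p = 7.54e-06). With only 3 reads in the Epcam+ve samples against 1352 in the HE pools, the ratio of reads was 582, with a 95% interval of 199 to 2828 that covers counting error only. Per kb of exon, to compare genes, the HE pools had 2652 ± 226 CP20M (SD, n = 2) of Amigo2, against 199 ± 202 for Lrrn1, whose mean rests on HE pool 2 (342, with 56.2 in HE pool 1). On average Nlgn2 was at 155, Dlg3 at 128, Tnr at 103 and Dlg4 at 64.1 CP20M per kb, with Shank2, Ntm and Nrg1 at 48.6, 34.2 and 30.8. In the Epcam+ve samples Shank2 (119) and Dlg3 (110) led on this scale, and the other 7 averaged at most 6.04.

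Lrrn1, a leucine-rich repeat protein of neuronal membranes, was the most uneven. Its level was 208 and 1267 CP20M across HE pools, 376 and 175 across KO pools, and 27 and 0 across Epcam+ve samples. HE pool 2 was thus above HE pool 1 by more than the genotypes differed. The log2 fold change of HE pools vs Epcam+ve samples was 4.78 ± 0.94 (SE), and the adjusted p of 0.00907 missed the threshold in limma. In edgeR the adjusted p was 0.000796. The reads numbered 113 against 3, a ratio of 48.7 with a 95% counting interval of 16.2 to 240.

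Ntm encodes neurotrimin, a GPI-anchored adhesion molecule of the IgLON family. HE pools held 139 and 414 CP20M of Ntm, KO pools held 301 and 140, and Epcam+ve samples held 0 and 11. These are 43 reads over both HE pools and 1 read over both Epcam+ve samples, a ratio of 55.6 with a 95% counting interval of 9.46 to 2245. The log2 fold change was 4.12 ± 0.75 (SE, adjusted p = 0.00665) and did not pass the threshold in limma or edgeR.

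Nlgn2, the neuroligin of inhibitory synapses that binds partners on the facing cell, differed little between the HE pools. These had 910 and 881 CP20M, KO pools had 751 and 419, and Epcam+ve samples had 36 and 11. The log2 fold change of HE pools vs Epcam+ve samples was 4.86 ± 0.53 (SE, adjusted p = 0.000725).

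Tnr encodes tenascin-R, an extracellular matrix protein of the nervous system found in perineuronal nets. Tnr reached 887 and 1774 CP20M across HE pools and 751 and 419 across KO pools, whereas both Epcam+ve samples lacked any read of it. Against a floor of 3 reads per library, which was worth 28.8 CP20M on average in the Epcam+ve samples, the mean of HE pools was at least 46.2-fold higher and that of KO pools at least 20.3-fold higher. The fitted log2 fold change of HE pools vs Epcam+ve samples was 6.98 ± 0.57 (SE, adjusted p = 0.000176), which depends on the pseudocount of 10.

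Among the scaffolds, Dlg4, which encodes PSD-95, followed the adhesion genes. HE pools had 645 and 1054 CP20M of Dlg4, KO pools 564 and 221, and Epcam+ve samples 9 and 0. The log2 fold change of HE pools vs Epcam+ve samples was 5.92 ± 0.60 (SE, adjusted p = 0.000512), from 135 reads against 1 read, a ratio of 174 with a 95% counting interval of 30.8 to 6941.

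Its paralog Dlg3, which encodes SAP102, did not. Levels of 887 and 614 CP20M (HE pools), 413 and 756 (KO pools) and 733 and 555 (Epcam+ve samples) were found, and all 3 groups overlapped. The log2 fold change of HE pools vs Epcam+ve samples was 0.21 ± 0.29 (SE, adjusted p = 0.654), and it turned to -0.05 without HE pool 1. Crypts had 829 to 1140 CP20M of Dlg3, and no library lay outside 413 to 1140.

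Shank2, a scaffold of the postsynaptic density that is also found in the transport complexes of epithelial cells, ran the other way. HE pools gave 645 and 401 CP20M, KO pools gave 338 and 826, Epcam+ve samples gave 1422 and 1131, and crypts ranged from 865 to 1246. Both HE pools were below both Epcam+ve samples, with a log2 fold change of -1.30 ± 0.29 (SE, adjusted p = 0.0154) that did not pass the thresholds. The paper names Nlgn2, Dlg3 and Shank2 as postsynaptic markers enriched in GFP+ve cells. Here this was seen for Nlgn2 but not for Dlg3 or Shank2, whose log2 fold changes in edgeR were 0.27 and -1.23. Within the GFP+ve pools, KO pool 2 had the highest Shank2 level and the highest goblet marker sum, and KO pool 1 the lowest of both. The part of this in the result was not tested.

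Nrg1, a secreted or membrane-bound ligand of the ErbB3 and ErbB4 receptors, was higher in the HE pools by less. Its level was 196 and 441 CP20M there, 76 and 70 across KO pools and 63 and 62 across Epcam+ve samples. The KO pools were thus close to the Epcam+ve samples, with 8 reads over both KO pools. The log2 fold change of HE pools vs Epcam+ve samples was 2.07 ± 0.55 (SE, adjusted p = 0.0279) and missed the threshold. Of its receptors, Erbb3 gave 2486 and 1614 CP20M for HE pools against 4506 and 3863 for Epcam+ve samples, and Erbb4 was at 0 throughout these 4 libraries.

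Markers of other cells that use these genes were looked at in the same libraries. The 8 enteric neuron markers summed to 1497 and 1568 CP20M in the HE pools, 721 to 1091 in the KO pools and 52 to 162 in the Epcam+ve samples. Most of this was Ret, at 1462 and 1201 CP20M in the HE pools, and without it the sums were 106 to 296, 140 to 227 and 0 to 63. The 6 enteric glia markers summed to 114 CP20M at most. The 4 endothelial markers summed to 1555 to 1895 CP20M in the HE pools 908 to 1803 in the KO pools and 162 to 433 in the Epcam+ve samples, with Pecam1 alone at 1496 and 1734 in the HE pools, and Cdh5 was at 0 in each of the 6 sorted libraries. The leukocyte markers summed to 129 CP20M at most. The part of these signals in the result was not tested.

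The other genes of the same families were taken from lists written with earlier results of these data known, and their counts stand beside the 1.58% of all genes called higher and 0.171% called lower. Of 15 synaptic adhesion molecules tested (of 35), 3 were higher in the HE pools, among them Nlgn2 and Clstn2, which encodes calsyntenin 2 (log2 fold change 6.12 ± 0.61, adjusted p = 0.000467). Of 10 leucine-rich repeat adhesion proteins tested (of 17), Amigo2 was higher. Of 7 IgLON, contactin and L1 proteins tested (of 21), 1 was higher, the L1 family member Nfasc (log2 fold change 5.38 ± 0.31, adjusted p = 2.91e-05). Of 3 tenascins and net proteins tested (of 12), Tnr was higher.

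Of 22 postsynaptic scaffolds tested (of 30), 3 were higher: Dlg4, Magi2, a scaffold of the same MAGUK family (log2 fold change 5.52 ± 0.42, adjusted p = 0.000117), and Camk2b, a subunit of the calcium-dependent kinase CaMKII (4.64 ± 0.28, adjusted p = 3.56e-05). Of 6 glutamate, GABA and glycine receptor subunits tested (of 32), 1 was higher. Of 8 neuregulin and ErbB genes tested (of 11), none was called by limma at these thresholds, and edgeR called the receptor Egfr. No gene of the 7 lists was called lower. The median log2 fold change over the genes tested was 0.65 for synaptic adhesion molecules, 1.28 for leucine-rich repeat proteins, 4.12 for the IgLON, contactin and L1 proteins, 0.05 for scaffolds and 0.12 for neuregulins and ErbB genes, beside -0.05 over all genes tested. Genes low in the Epcam+ve samples entered only if high in the pools, so these medians are descriptions.

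**Figure D2:**
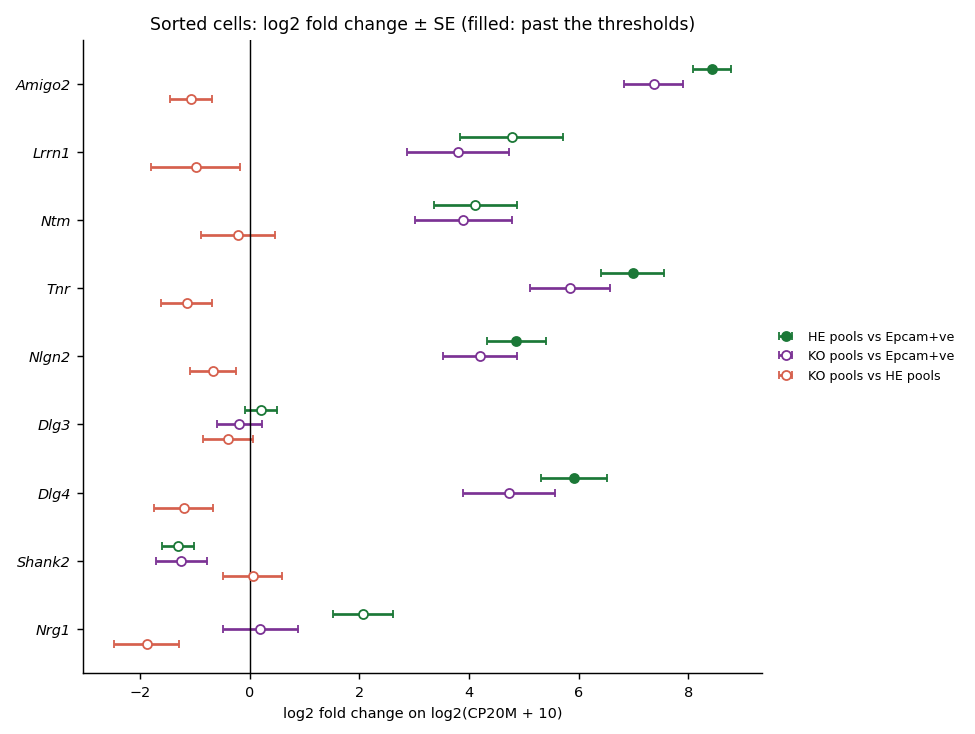
Log2 fold change ± SE (limma, 2 libraries per group) of each gene in the 3 comparisons of sorted cells; filled points passed the thresholds of their comparison. HE pools vs Epcam+ve samples runs from -1.30 for Shank2 to 8.43 for Amigo2, and KO vs HE pools from -1.88 for Nrg1 to 0.06 for Shank2, with no filled point.

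KO pools were next set against the same Epcam+ve samples, which the comparisons share. This asked whether the genes are also higher in GFP+ve cells without the receptor. Amigo2, Lrrn1, Ntm, Tnr, Nlgn2, Dlg4 and Nrg1 lay above both Epcam+ve samples in both KO pools, and Shank2 below, as did 19.4% and 35.5% of all genes tested. All of these but Nrg1 and Shank2 were under 40 CP20M in both Epcam+ve samples and were tested only because the KO pools were higher. By limma 0 of 9 members passed the same thresholds, where 0% of the 15779 genes tested were called; 7 members and 2925 genes had an unadjusted p under 0.05. The edgeR test called 31 genes, 0.19% of those tested as higher and 0.00634% as lower, among them Amigo2 (adjusted p = 0.000645), and DESeq2 called 239 genes and 3 members (Amigo2, Tnr and Nlgn2). The limma log2 fold changes were 7.37 ± 0.54 for Amigo2 (adjusted p = 0.0173), 5.84 ± 0.73 for Tnr (adjusted p = 0.038), 4.72 ± 0.84 for Dlg4 (adjusted p = 0.0791) and 4.20 ± 0.68 for Nlgn2 (adjusted p = 0.0634). Nrg1 was at 0.19 ± 0.68 (adjusted p = 0.892). The median over all genes was -0.26, so these values are to be read against it. Over the alternative settings in which they were tested, log2 fold changes ranged from 6.205 to 8.41 for Amigo2 and 3.91 to 9.13 for Tnr. No gene of the 7 family lists was called by limma, and edgeR called Amigo2 alone among them.

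The comparison of KO with HE pools asked what loss of the receptor does in the cells that would express it. By limma 0 of 9 members and 0% of the 11892 genes tested passed an adjusted p under 0.05, with 3 members (Amigo2, Tnr and Nrg1) and 503 genes at an unadjusted p under 0.05. The edgeR test called 0 genes with 499 at an unadjusted p under 0.05, and DESeq2 called 8 genes and 0 members. The criterion of the study's methods has no p-value: it asks that the difference of means exceed 2 times the average SD of the groups and that the means differ by over 1.5-fold. By it Amigo2, Nlgn2 and Nrg1 were lower in the KO pools, 3 of 9 members, where 9.98% of genes were called lower and 3.23% higher. An exact permutation test of 2 against 2 libraries cannot go below 0.33.

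Of the 9 members, Amigo2, Tnr, Nlgn2, Dlg4 and Nrg1 were lower in both KO pools than in both HE pools, and none was higher in both. Among all genes tested, 26.1% were lower and 8.91% higher without overlap. The log2 ratio of means was -0.97 for Amigo2, -1.19 for Tnr, -0.61 for Nlgn2, -1.11 for Dlg4 and -2.13 for Nrg1, beside a median of -0.15 over all genes tested. In limma these members had log2 fold changes of -1.07 ± 0.38, -1.15 ± 0.47, -0.66 ± 0.41, -1.20 ± 0.54 and -1.88 ± 0.59 (SE), all with an adjusted p of 0.931. Lrrn1 (-0.98 ± 0.81), Ntm (-0.22 ± 0.67), Dlg3 (-0.39 ± 0.45) and Shank2 (0.06 ± 0.53) had overlapping pools. KO pool 2 was the lower of the KO pools for Amigo2, Lrrn1, Ntm, Tnr, Nlgn2, Dlg4 and Nrg1, and the higher for Dlg3 and Shank2.

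The calls by the criterion depended on the pools. With 1 pool left in a group, only the SD of the other group could enter it, so calls without a pool come from a changed rule. The log2 ratios moved as well. Without HE pool 2 they turned to 0.41 for Lrrn1 and 0.67 for Ntm, and without KO pool 1, the shallowest library, to 0.011 for Dlg3. In limma, Lrrn1 was at 0.29, Ntm at 0.54 and Shank2 at -0.28 without HE pool 2. Amigo2, Tnr, Nlgn2, Dlg4 and Nrg1 kept their direction with any 1 pool left out, as members without overlap must. Without KO pool 2 the log2 ratio was -0.52 for Amigo2 and -0.25 for Nlgn2. Median-of-ratios rescaling left 1 member called, with Amigo2 at -0.80 and Nlgn2 at -0.45.

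The summed enteroendocrine markers moved with these genes, being lower in both KO pools. The members were therefore also given per 100000 CP20M of that sum, a scale chosen after seeing the data. Most of the sum was Chgb, Chga and Tph1, which the paper reports as reduced in KO cells, so the scale is not independent of genotype. These, Cpe and Pax6 were lower in both KO pools. Insm1 (3406 and 4948 in HE, 5182 and 1058 in KO pools 1 and 2), Neurod1 and Scgn overlapped. This scale raises every gene of the KO pools alike, because the sum averaged 986430 CP20M in the HE and 481825 in the KO pools. On it the median log2 fold change over 12483 genes tested was 0.82 instead of -0.18, 52.7% of genes were higher in both KO pools and 1.03% lower in both. Amigo2 was then at 919 and 798 in the HE pools and 966 and 762 in KO pools 1 and 2, and the groups overlapped. Tnr was at 103 and 159 against 124 and 117, and Dlg4 at 75.2 and 94.5 against 93.0 and 61.9, both overlapping as well. Nlgn2 was at 106 and 79.0 against 124 and 117, higher in both KO pools, and so was Ntm, at 16.2 and 37.1 against 49.6 and 39.2. Nrg1 was the only one of the 9 lower in both KO pools on this scale, at 22.9 and 39.6 against 12.5 and 19.6, which rests on 8 reads in the KO pools. With this scale the criterion called 0 of 9 members among 3884 genes, and the log2 ratio was 0.01 for Amigo2 and -0.96 for Nrg1, beside a median of 0.93 over all genes. Between HE pools and Epcam+ve samples on the same scale, Amigo2, Tnr and Dlg4 stayed higher in both HE pools. Lrrn1, Ntm and Nlgn2 overlapped, with Nlgn2 at 106 and 79.0 against 275 and 86.4. Dlg3, Shank2 and Nrg1 were lower in both HE pools. Apart from Dlg3, Shank2 and Nrg1, the Epcam+ve values rest on few reads.

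**Figure D3:**
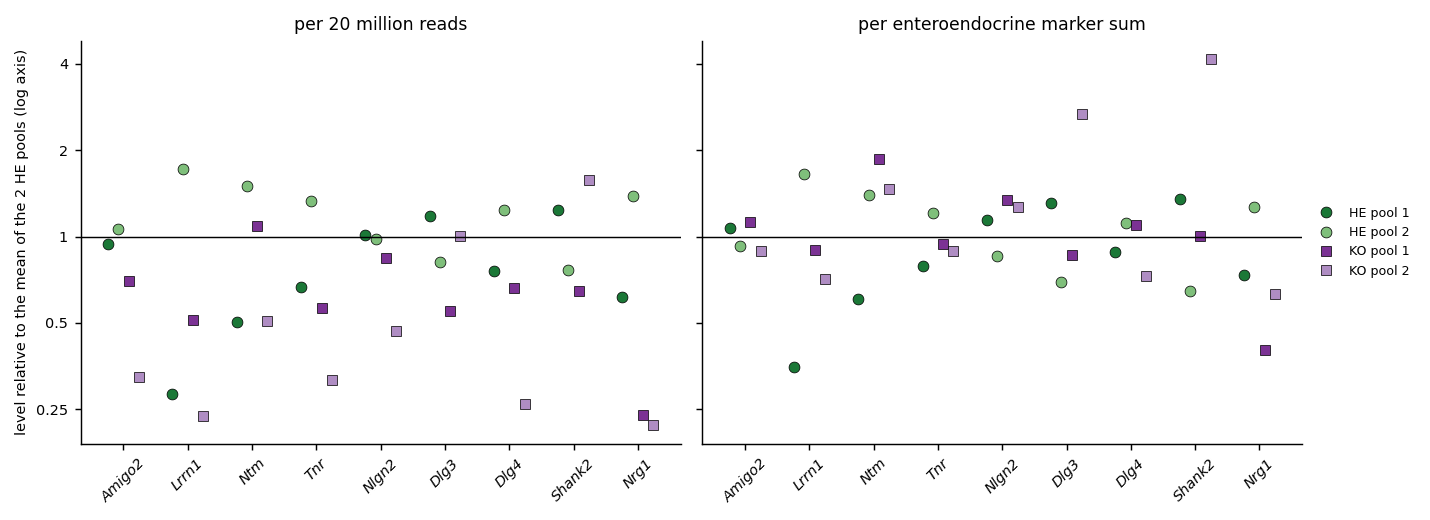
Level of each gene in the 4 GFP+ve pools relative to the mean of the 2 HE pools (log axis), as CP20M at left and per summed enteroendocrine marker level at right. At left Amigo2, Tnr, Nlgn2, Dlg4 and Nrg1 have both KO pools below both HE pools, and at right Nrg1 alone does.

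In the wider families, the criterion called 3 of 12 synaptic adhesion molecules tested lower in the KO pools, Nlgn2, Clstn2 (log2 ratio -1.503) and Lrfn4 (-1.46), and none higher. Of 8 leucine-rich repeat proteins, 2 were lower (Amigo2 and Lrrn3, -1.06). Of 7 IgLON, contactin and L1 proteins, Nfasc was lower (-1.17), as was Vcan, which encodes the matrix proteoglycan versican, of 2 matrix genes tested (-1.21). Of 19 scaffolds, Baiap2 (-1.81) and Camk2b (-1.02) were lower and Homer2, a scaffold of metabotropic glutamate receptors, was higher (1.27). Of 5 receptor subunits, Grik5 was lower (-0.73) and Grin3a higher (2.04). Of 8 neuregulin and ErbB genes, Nrg1, Egfr (-0.78) and Bace1 (-0.72), the protease that cleaves neuregulin 1, were lower. These shares are to be read against the 9.98% and 3.23% of all genes. Some ratios rest on few reads. Grin3a was at 47 and 41 CP20M in the HE pools, and Lrfn4 at 76 in KO pool 1, where a read was worth 37.5. Per enteroendocrine marker sum, the criterion called 51 of 12483 genes lower and 3833 higher, and the lists were not counted on that scale.

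In crypts the question was whether the same genes change across the whole epithelium, of which GFP+ve cells are a part. Amigo2 was at 144 and 80 CP20M in WT crypts and 68 to 100 in KO crypts (median 78), and the groups overlapped. Nlgn2 was at 62 and 48 in WT crypts and 50, 81, 83, 114 and 124 in KO crypts. Tnr was at 40 and 21 against 7 to 53, Dlg3 at 829 and 1051 against 976 to 1140, and Shank2 at 922 and 903 against 865 to 1246. Lrrn1, Ntm, Dlg4 and Nrg1 stayed under the filter of 40 CP20M in 2 libraries and were not tested; they were at 3 to 34, 8 to 50, 8 to 35 and 3 to 61 CP20M in the 7 libraries.

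Of the 5 members tested, 0 passed the thresholds for KO vs WT crypts, which ask for an adjusted p up to 0.2 together with over 1.5-fold change, where 9.48% of the 15975 genes tested were called in either direction. The edgeR test called 1641 genes and 0 members, and 0 members had an unadjusted p under 0.05 in limma. Nlgn2 came nearest, with a log2 fold change of 0.58 ± 0.29 (SE, n = 5 vs 2, adjusted p = 0.232), and passed without KO mouse 5 (0.75). With the mouse number as a replicate block, it also passed (0.73), although the numbers name different mice. Shank2 was at 0.24 ± 0.14 (adjusted p = 0.296), Dlg3 at 0.16 ± 0.12 (adjusted p = 0.423), Amigo2 at -0.37 ± 0.25 (adjusted p = 0.368) and Tnr at -0.39 ± 0.47 (adjusted p = 0.645). The value of Amigo2 rested on WT mouse 1, without which it was 0.02. WT mouse 1 also had the higher enteroendocrine marker sum, 14776 against 7943 CP20M in WT mouse 2.

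In the same families, single genes other than the members passed in KO crypts, 7 higher and 2 lower of 62 genes tested over the lists, members included, where 7.95% of all genes were called higher and 1.53% lower. Of 11 synaptic adhesion molecules tested, Lrrtm2 (log2 fold change 0.78, adjusted p = 0.0317) and Cadm1 (0.76, adjusted p = 0.0491) were higher and none was lower. Of 9 leucine-rich repeat proteins, Lrrc4 was higher (0.92, adjusted p = 0.0904) and Flrt2 lower (-0.86, adjusted p = 0.0565). Of 5 matrix genes, Bcan, which encodes brevican, was higher (0.84, adjusted p = 0.131) and Tnxb, a tenascin, lower (-0.80, adjusted p = 0.199). Tnxb was at 355 and 109 CP20M in WT mice 1 and 2 and 76 to 185 in KO crypts. The 6 fibroblast markers summed to 2504 and 950 CP20M in WT mice 1 and 2 and 473 to 1498 in KO crypts. The part of this in the result was not tested. Of 5 receptor subunits, the NMDA receptor genes Grin1 (0.75, adjusted p = 0.0497) and Grin2d (0.85, adjusted p = 0.036) were higher, and of 21 scaffolds Camk2b was (0.82, adjusted p = 0.084). None of the 4 IgLON, contactin and L1 proteins or of the 7 neuregulin and ErbB genes tested passed. No gene of the 7 lists passed in the conditional line, over both lines or in the interaction.

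In the KO crypts, 5 of 9 members (Lrrn1, Ntm, Tnr, Dlg4 and Nrg1) were at their highest among the 5 libraries in KO mouse 1. That library also had the highest enteroendocrine sum of the 5 (11649, against 6053 to 9512 CP20M), the highest enteric neuron sum (210, against 109 to 147) and the most genes with a value above 0 (37713, against 28455 to 33385). The part of these in the levels was not tested. The share of all genes at their highest in that library was not counted, so the count of members shows nothing particular to them.

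In the conditional line, Amigo2 was at 42, 59 and 114 CP20M in the controls and 52 and 93 in the libraries labelled eKO 1 and 2. Nlgn2 was at 71, 67 and 100 against 57 and 86, Dlg3 at 915, 979 and 971 against 849 and 883, and Shank2 at 941, 979 and 989 against 900 and 1052. Dlg3 was lower in both eKO libraries than in all 3 controls, with a log2 fold change of -0.14 ± 0.14 (SE), where 2.79% of all genes were lower and 7.58% higher without overlap. Dlg4 was at 6, 4 and 10 against 13 and 13, and Tnr at 6, 12 and 19 against 11 and 30. Of the 4 members tested, 0 passed the thresholds, where 0% of the 15401 genes tested did by limma, 127 had an unadjusted p under 0.05, and edgeR and DESeq2 called 0 and 6. All 4 had an adjusted p of 1, and 0 an unadjusted p under 0.05. Deviations of same-numbered eKO and control libraries from their group means correlated at 0.59 and 0.36 over genes. This fit does not model what they share, and its source was not tested. Without the library labelled eKO 2, the log2 fold change of Amigo2 went from 0.07 to -0.30 and that of Shank2 from 0.0053 to -0.11. Nlgn2 and Dlg3 kept their direction.

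Over the crypts of both lines with the line as a covariate, 0 of 5 members were called, where 0.0243% of the 16447 genes tested were. The log2 fold changes were 0.25 ± 0.23 for Nlgn2, 0.13 ± 0.10 for Shank2, 0.02 ± 0.09 for Dlg3, -0.02 ± 0.37 for Tnr and -0.17 ± 0.24 for Amigo2, with adjusted p-values of 0.742 to 0.994. The interaction of genotype with line, which asks whether the lines respond differently, was called in 0 of 5 members and in 0.0304% of genes. Line here also stands for genetic background and kind of knockout, which cannot be told apart. In both fits 0 members had an unadjusted p under 0.05 and edgeR called 0 members. The largest, in Tnr, was -0.80 ± 0.72 (SE, adjusted p = 0.695). Without the library labelled eKO 2, 0 members and 32 genes were called over both lines. In the interaction, where this leaves 1 eKO library, no member changed direction, and the count of calls is not comparable. Amigo2 rested on 89 reads over both WT mice.

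**Figure D4:**
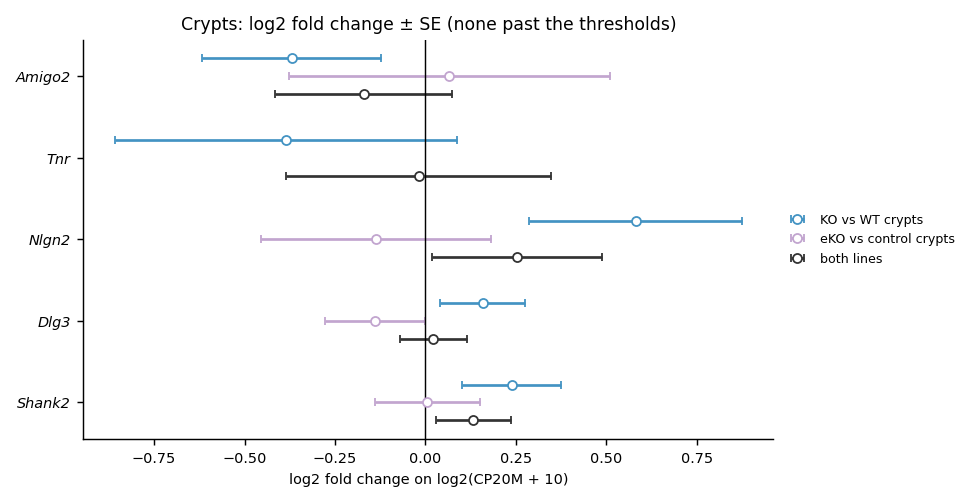
Log2 fold change ± SE (limma) of the 5 genes tested in crypts, for KO vs WT crypts, eKO vs control crypts and both lines together; Tnr was under the filter in the conditional line. All open points lie between -0.39 and 0.58, and none passed the thresholds.

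The order of levels over the 7 groups set the members apart. Amigo2, Tnr, Nlgn2 and Dlg4 had HE pools first and KO pools second, without overlap between them, then the crypt groups, which mostly overlapped each other, and Epcam+ve samples last. Lrrn1 and Ntm had the same first groups, but HE and KO pools overlapped. Nrg1 had HE pools, KO pools and Epcam+ve samples in this order ahead of all crypt groups. For Dlg3 all neighbours in the order overlapped, with KO crypts highest and KO pools lowest, and for Shank2 the Epcam+ve samples were first and the HE pools last.

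The genes whose levels over the 18 libraries were most like each member were found by Pearson correlation on log2(CP20M + 10) among 18474 genes. For Amigo2 they were Lrp11, Nkx2-2, a transcription factor of enteroendocrine cells, and Fam20c (0.987 to 0.990). For Dlg4 they were Parvb, Insm1, a factor of endocrine differentiation, and Efcab1 (0.985 to 0.988), and for Tnr they were Amigo2, Col8a2 and Gm26565. Nlgn2 was most like the ion channel genes Cacna1h and Kcnh6 and like Fam20c, Lrrn1 like the L1 family gene Chl1, Gm43000 and Rgag4, Ntm like Gm30648, Lhfpl4 and the neural splicing factor gene Srrm4, and Nrg1 like Micu3 and Nr4a3, both at 0.906. Dlg3 and Shank2 were like other genes, led by Becn1 (0.953) and Kif20b (0.959). The libraries fall into sorted GFP+ve pools and the rest and share depth and preparation within each, so these values are descriptions only.

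The genes lie on 8 chromosomes (GRCm38, GENCODE vM21). Amigo2 is at chr15:97244125-97247287, Lrrn1 at chr6:107529768-107570214, Ntm at chr9:28994750-29963141, Tnr at chr1:159523769-159931729 and Nrg1 at chr8:31814551-32884029. Nlgn2 (chr11:69823122-69837784) and Dlg4 (chr11:70016942-70047522) are on the same chromosome, and Dlg3 is at chrX:100767722-100818410 and Shank2 at chr7:144001928-144424494. Exons of Amigo2 share 58 bases with Pced1b, of Tnr 443 bases with Gm38039 and of Nrg1 482 bases with Gm26578, each on the other strand. Whether the counting used strand is not given in the sources used here. Pced1b was at 357 and 321 CP20M in the HE pools, far below Amigo2, Gm38039 at 35 and 0, and Gm26578 at 12 and 67.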

How the data were processed

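RNA had been extracted with RNeasy (crypts) or miRNeasy micro kits (sorted cells) and made into Ovation Solo libraries, sequenced as paired-end reads. STAR mapped the reads to GRCm38, and HTSeq counted them over the genes of Ensembl release 90. The authors then set every library to 20000000 reads and deposited the resulting signal or score values (CP20M). That each gene was rounded up is inferred from the values, whose total lies slightly above this number in every library. These values are the same measure for sorted cells and for crypts. Whole reads were recovered as the step at which values are scaled whole numbers (99.84% to 99.99% of values of a library came out whole).

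Genes with at least 40 CP20M (2 CPM) in at least 2 of the compared libraries, or above 40 in all 4 pools for KO vs HE, were tested on log2(CP20M + 10) with limma 3.58.1 (trend, Benjamini-Hochberg adjustment over all genes tested) in R 4.3.3. Fold changes on this scale understate low genes. The thresholds for sorted vs Epcam+ve cells and for crypts follow the study's methods, which used edgeR for them, and so does the criterion for KO vs HE pools, which uses no edgeR. The adjusted p under 0.05 for KO vs HE pools in limma and the adjusted p up to 0.2 for the interaction were chosen here. edgeR 4.0.16 and DESeq2 1.42.0 were run on recovered reads as alternatives. Scripts were tested on simulated data. Read ratios have exact conditional 95% intervals for counting error only. Groups came from sample titles. Levels per kb used the union of exons of GENCODE vM21, and promoters came from RefSeq (GRCm38.p6). The genes, the family and marker lists and the tests were chosen with earlier results of these data known. The genes named are the 9 members, Olfr78, the list genes past the thresholds (up to 4 per direction and list) and, for each member, the 3 genes of highest correlation; Erbb3 and Erbb4 are also named as binding partners, chosen after their values were seen, and some genes that the rule names are not reported here. Libraries that share a number across groups come from different animals. Their deviations from the group means correlated at 0.03 (HE pools with Epcam+ve samples), 0.02 (KO pools with Epcam+ve samples), -0.16 (KO with HE pools), 0.06 and -0.10 (KO with WT crypts) and 0.59 and 0.36 (eKO with control crypts), and numbers were not treated as pairs.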

Additional observations from a re-analysis of the deposited data

Results flagged for a closer look

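Nrg1 in KO crypts of mouse 1 was at 61 CP20M, whereas the other 4 KO crypt libraries were at 3 to 13. The gap to the nearest library was 0.828 of the range of the 5, above the critical value of 0.71. Chance flags about 1 in 20 groups, and 9 groups were looked at, 1 for each gene. The same library was highest of the 5 for Lrrn1, Ntm, Tnr and Dlg4 as well, and had the highest enteroendocrine marker sum and the most genes above 0. Nrg1 was under the filter in that comparison, so no test rests on it.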

How the results depend on the processing

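Over the settings that left every library in, the members' fold changes kept direction and side of the threshold in 487 of the values computed, and 26 reversed, 21 newly passed and 12 no longer passed; with 1 library left out, 237 kept both, 31 reversed, 14 newly passed and 7 no longer passed. The cause of these changes was not tested. Lrrn1, Ntm, Dlg4 and Nrg1 stayed under the filter in crypts and were not tested there. Where 1 library was left in a group, the spread came from the other group alone.

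For HE pools vs Epcam+ve samples, 287 genes and 4 members were called. A pseudocount of 1 gave 77 genes and 1 member, a pseudocount of 40 gave 522 genes, edgeR 746 and DESeq2 695 genes, no trend 0 genes and 0 members, all 6 sorted libraries in 1 fit 117 genes and 2 members, and an adjusted p under 0.05 with no fold limit 3892 genes and 8 members. Leaving out 1 library gave 317 to 1195 genes and 0 to 4 members, with Dlg3 at -0.054 to 0.47.

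For KO pools vs Epcam+ve samples, 0 genes and 0 members were called by limma. No filter gave 15 genes and 1 member, edgeR 31 genes and 1 member, DESeq2 239 genes and 3 members, all 6 sorted libraries in 1 fit 33 genes and 1 member, and an adjusted p under 0.05 with no fold limit 116 genes and 2 members. Dlg3 turned to 0.10 with edgeR and 0.073 with DESeq2. Leaving out 1 library gave 153 to 1753 genes and 0 to 3 members, with Dlg3 at -0.62 to 0.24.

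For KO vs HE pools, 0 genes were called by limma, 2 with no filter and 8 with DESeq2, and leaving out 1 pool gave 0 to 373 genes and 0 to 3 members, with Lrrn1 at -2.26 to 0.29, Ntm at -0.97 to 0.54, Dlg3 at -0.82 to 0.034 and Shank2 at -0.58 to 0.69. By the criterion, 1571 genes and 3 members were called, 1 member with median-of-ratios rescaling and 5 with the population SD, and leaving out 1 pool gave 1853 to 3390 genes and 0 to 5 members, with Lrrn1 at -2.20 to 0.41, Ntm at -0.98 to 0.67, Dlg3 at -0.86 to 0.011 and Shank2 at -0.63 to 0.66. Per enteroendocrine marker sum, chosen after seeing the data, the criterion called 3884 genes and 0 members. That scale raised all genes of the KO pools alike and moved the limma median of all genes from -0.18 to 0.82, so the sign changes are set by the scale. On it the limma values of Amigo2, Lrrn1, Ntm, Nlgn2 and Dlg3 turned to 0.0025, 0.058, 0.81, 0.39 and 0.66, and the log2 ratios of Amigo2, Ntm, Nlgn2 and Dlg3 to 0.0090, 0.74, 0.38 and 0.82.

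For KO vs WT crypts, 1514 genes and 0 members were called, 854 genes with a pseudocount of 40 and 914 with a filter of 100. Leaving out 1 library gave 546 to 1684 genes and 0 to 1 member, with Amigo2 at -0.76 to 0.018 and Dlg3 at -0.012 to 0.33. For eKO vs control crypts, 0 genes were called and 6 with DESeq2. Shank2 turned to -0.027 with median-of-ratios rescaling, -0.024 with edgeR and -0.026 with DESeq2, and Amigo2 to -0.0048 with edgeR and -0.014 with DESeq2. Leaving out 1 library gave 1 to 6 genes, with Amigo2 at -0.30 to 0.43, Nlgn2 at -0.40 to 0.12 and Shank2 at -0.11 to 0.12.

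Over both lines, 4 genes were called, 9 with edgeR, 22 with DESeq2, 0 with no trend and 0 at an adjusted p under 0.05. Dlg3 turned to -0.023 with median-of-ratios rescaling, -0.011 with edgeR and -0.020 with DESeq2, and Tnr to 0.042 with edgeR and 0.063 with DESeq2. Leaving out 1 library gave 0 to 1134 genes, with Amigo2 at -0.35 to 0.046, Dlg3 at -0.087 to 0.065 and Tnr at -0.27 to 0.10. For the interaction, 5 genes were called, 3 with a pseudocount of 1, 3 with no filter, 3 with a filter of 100 and 66 with DESeq2, and leaving out 1 library gave 2 to 4296 genes. The highest counts came without eKO 1 for both lines and without the library labelled eKO 2 for the interaction.

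With the replicate number as a block, 523 genes were called for HE pools vs Epcam+ve samples, 194 genes and 2 members for KO pools vs Epcam+ve samples, 1 member (Nlgn2) for KO vs WT crypts, 13 genes for eKO vs control crypts, 27 over both lines and 50 for the interaction. Under this block Tnr turned to 0.35 in KO vs WT crypts, Nlgn2 to 0.022 in eKO vs control crypts, and Dlg3, Tnr and Amigo2 over both lines to -0.023, 0.49 and 0.058. Pairing the pools crosswise, added after seeing the data, gave 85 genes and 1 member by limma and 2215 genes and 5 members by the criterion.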
